A study of Mus musculus with 6 samples.

Results

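The MS4A (membrane-spanning 4-domain subfamily A) genes encode small proteins that cross the cell membrane several times. They were examined in N9 microglia, an immortalized cell line derived from mouse brain. The members were the 8 genes of the deposited count table whose symbols were Ms4a4a, Ms4a4b, Ms4a4c, Ms4a4d, Ms4a6b, Ms4a6c, Ms4a6d and Ms4a7, out of 54532 genes in all. RNA-seq libraries came from 3 samples of untreated N9 cells (control) and 3 samples kept for 6 h with lipopolysaccharide (LPS), the bacterial outer membrane component, at 1 µg/ml. All 6 libraries came from this line, grown in RPMI medium with serum and antibiotics, and no genotype or further agent set the groups apart. Nothing states that the replicates were separate cultures, so p-values measure only the spread between these samples, which may be technical.

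MS4A proteins sit in the membrane beside immune receptors and adjust their surface level or signalling. The founding member Ms4a1 is CD20 of B cells, and Ms4a2 is the beta chain of the high-affinity IgE receptor of mast cells. Of the members studied here, Ms4a4a and Ms4a7 are best known from macrophages, where Ms4a4a partners the fungal receptor Dectin-1 (Clec7a) and Ms4a7 marks macrophages at the borders of the brain more than resting microglia. Ms4a6d is a myeloid gene whose protein binds the complement receptor Vsig4, while Ms4a4b is known from T cells, where it associates with GITR (Tnfrsf18).

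All 8 members lie in a single cluster on mouse chromosome 19 between 11321039 and 11604849 (GRCm38/mm10). Their resemblance bears on how reads can be assigned to them, and the coding starts of the Ms4a6 genes show it. The first 90 coding bases from GENCODE release M21 are given 5′ to 3′, with capitals at the positions that differ from Ms4a6d.
Ms4a6d: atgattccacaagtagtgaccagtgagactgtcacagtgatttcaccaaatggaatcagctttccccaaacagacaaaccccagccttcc
Ms4a6c: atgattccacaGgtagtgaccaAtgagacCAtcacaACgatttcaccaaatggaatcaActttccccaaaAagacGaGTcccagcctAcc
Ms4a6b: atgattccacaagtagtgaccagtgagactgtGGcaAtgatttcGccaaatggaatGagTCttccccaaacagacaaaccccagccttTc
Ms4a6c differed from Ms4a6d at 12 of these 90 positions and Ms4a6b at 8, while Ms4a6b and Ms4a6c differed from each other at 18. Over the whole coding sequence, the closest pair was Ms4a4b and Ms4a4c, with 91.8% of aligned bases identical and 56 of 681 bases different. Ms4a4c and Ms4a4d shared 87.9%, Ms4a4b and Ms4a4d 85.7%, and Ms4a6b and Ms4a6c 85.3%. Ms4a6d shared 81.3% with Ms4a6b and 79.1% with Ms4a6c. Despite its name, Ms4a4a shared only 67.1%, 68.3% and 67.6% with Ms4a4b, Ms4a4c and Ms4a4d.

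**Figure D1:**
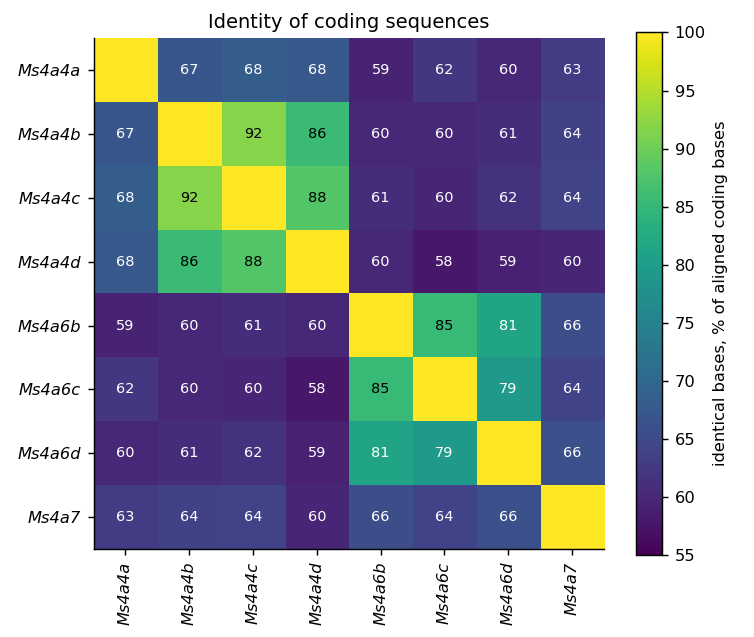
Identity of the coding sequences of the 8 members, in percent of aligned bases, with 1 row and 1 column per gene and lighter colours for closer pairs. The Ms4a4b, Ms4a4c and Ms4a4d genes form a block of at least 85.7%, the Ms4a6 genes a block of at least 79.1%, and the lowest pair is Ms4a4d and Ms4a6c at 57.9%.

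The promoters of Ms4a4b and Ms4a4c, 2 genes with counts in LPS libraries alone, are shown because their bases nearest the start are close copies. The 250 bases before the start were taken from RefSeq on GRCm38.p6, both on the plus strand, 5′ to 3′, with capitals at the letters GAGGAA, the core recognised by PU.1 (Spi1), a transcription factor of myeloid and B cells.
Ms4a4c chr19:11407411-11407660: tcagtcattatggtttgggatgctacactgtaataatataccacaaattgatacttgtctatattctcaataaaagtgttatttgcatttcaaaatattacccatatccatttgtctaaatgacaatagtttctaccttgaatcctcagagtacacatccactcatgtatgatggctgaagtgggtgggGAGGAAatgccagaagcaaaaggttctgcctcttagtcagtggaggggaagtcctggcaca
Ms4a4b chr19:11443308-11443557: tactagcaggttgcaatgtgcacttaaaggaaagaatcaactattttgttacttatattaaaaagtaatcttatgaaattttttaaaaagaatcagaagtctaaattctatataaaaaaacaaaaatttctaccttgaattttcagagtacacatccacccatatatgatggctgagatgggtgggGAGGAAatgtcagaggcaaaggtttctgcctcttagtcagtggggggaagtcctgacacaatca
The alignment from 131 to 5 bases before the Ms4a4b start and from 128 to 1 before the Ms4a4c start had 128 columns, 114 of them identical and 1 with a gap. The GAGGAA letters lay 64 to 59 bases before the Ms4a4b start and 61 to 56 before the Ms4a4c start, and 23.3% of all 32851 RefSeq windows of this length hold them on either strand. The Ms4a4c window had 0 bases in annotated exons and the Ms4a4b window 5. RefSeq windows were matched for 7 of 8 members, all but Ms4a6d. Not all are free of transcribed sequence, since the Ms4a6b window had 106 of 250 bases in annotated exons and the Ms4a6c window 2. None of the windows of these 7 held the letters of the interferon-stimulated response element (ISRE, in 2.98% of all windows) or of the STAT site GAS (TTCNNNGAA, in 7.02%). A kappa B match (GGGATTTTCC) lay 247 to 238 bases before the Ms4a4a start, against 7.25% of all windows with such a match. An AP-1 match (TGATTCA, from TGANTCA, in 6.75% of all windows) lay 81 to 75 bases before 1 of the Ms4a7 starts. The window of that start, 11334696 to 11334945, lies inside the deposited span of Ms4a7 and holds 0 bases in annotated exons. Both strands were searched for every motif and no matches overlapped, and a match describes letters, not binding.

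Each library held between 16363767 and 17956772 counted reads, and 3 counts, the floor used for a gene at 0, correspond to 0.161 to 0.190 CPM (counts relative to library size, scaled by TMM factors of 0.965 to 1.04). Markers of microglia and macrophages were present in all libraries, with Csf1r at 431.1 ± 14.6 CPM in control (SD, n = 3), but the homeostatic markers Tmem119 (9.64 ± 0.650 CPM), Cx3cr1 (3.05 ± 0.879 CPM) and P2ry12 (0.264 ± 0.0924 CPM) were low, and so was the general marker Aif1 (0.378 ± 0.142 CPM). The LPS response was present, since 4 of 5 listed response genes were tested and all 4 were higher. Cxcl10 rose by 7.04 ± 0.11 (SE) and Tnf by 3.88 ± 0.06 on the log2 scale, while Nos2 held 0, 2 and 2 counts in control and 285, 385 and 312 with LPS, and Il1b 3, 5 and 0 against 155, 172 and 122. Reads of 12 hepatocyte markers summed to 8, 285 and 465 counts in control replicates 1, 2 and 3 and to 5, 5 and 12 in the LPS libraries, so control replicates 2 and 3 stood apart, and the members' values below are also given without this pair where a call depends on it. For other genes no values without the pair are given. Such fits have 1 control library, which is assumed to vary like the LPS libraries. The part of these reads in the results was not tested. In bulk RNA, fewer cells that express a gene and less RNA of it per cell cannot be told apart.

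Ms4a6d was the member that N9 cells expressed, and it was moderately higher with LPS. Ms4a7 and Ms4a6c were higher from levels near 1 CPM or below, Ms4a4b and Ms4a4c had counts with LPS alone, Ms4a6b overlapped between the groups, and Ms4a4d and Ms4a4a were at or near 0. Of the 8 members, 3 passed the filter on low counts and all 3 were higher with LPS by edgeR's quasi-likelihood test at a Benjamini-Hochberg adjusted p under 0.05, where 18.7% of the 12296 tested genes were higher, 15.7% lower and 34.3% called in either direction. None was lower among these 3, at an unadjusted p under 0.05 or with DESeq2, which called 2 higher. For Ms4a7 and Ms4a6c only 1 of the 3 control libraries reached 10 counts, so they passed the filter through their LPS libraries, and the count of 3 among the tested members is not support of a family-wide rise. The groups did not overlap, with LPS higher, for the tested 3, a pattern of 23.7% of the tested genes. The groups also did not overlap for Ms4a4b and Ms4a4c, which are not among the tested genes, so that share does not cover them. Each held 0 counts in every control library and 1 count in its lowest LPS library, a gap within counting error.

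**Figure D2:**
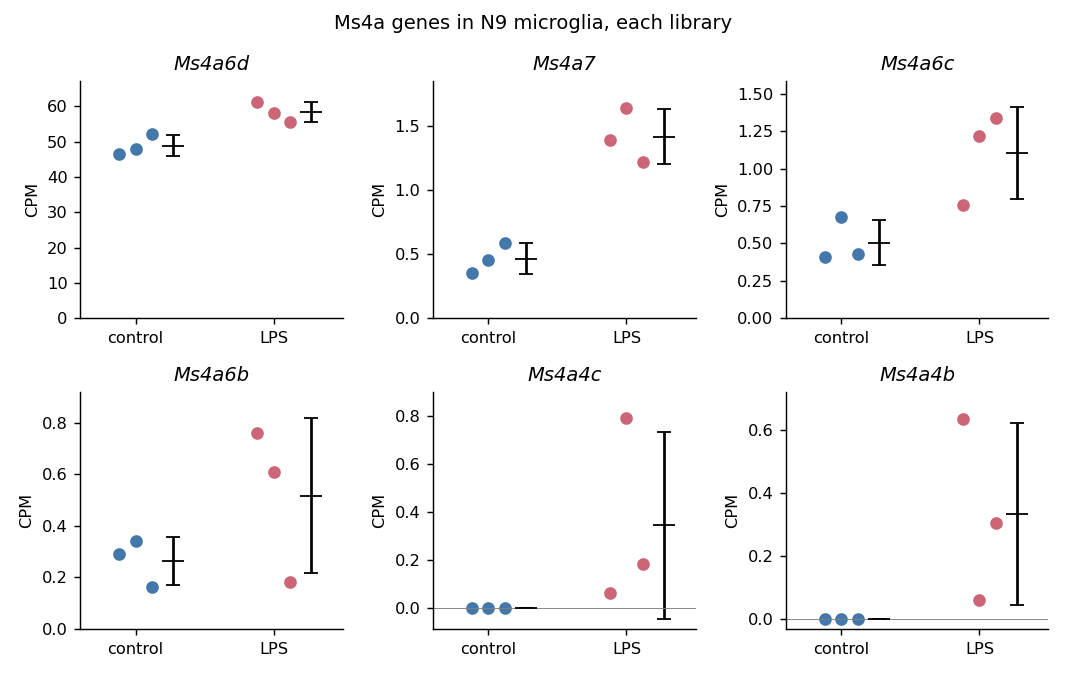
CPM of 6 members in each library, as points for control (blue) and LPS (red), with bars for the mean ± SD of 3 libraries. The axis of Ms4a6d reaches over 60 CPM and the other axes at most 1.64 CPM. LPS points lie above control points except for Ms4a6b, and Ms4a4c and Ms4a4b are at 0 in control.

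Ms4a6d (ENSMUSG00000024679, 11586604 to 11604849, minus strand) held 798, 847 and 970 counts in control and 967, 956 and 915 with LPS. These counts were 46.5, 48.0 and 52.1 CPM in control and 61.2, 58.2 and 55.7 CPM with LPS. On this scale the lowest LPS value exceeded the highest control value. Ms4a6d averaged 48.9 ± 2.90 CPM in control and 58.4 ± 2.79 with LPS (SD, n = 3), for a rise on the log2 scale of 0.26 ± 0.06 (SE) with an adjusted p of 0.00495 by edgeR, or 1.19-fold. The call for this rise changed with the scaling. With library totals in place of TMM factors, a setting added after seeing the data that moves the median of all tested genes from 0.00 to -0.09 on the log2 scale, the log2 fold change was 0.16 with an adjusted p of 0.058 by edgeR. The groups then met, at 54.02 CPM of the library total in control replicate 3 and 53.98 in LPS replicate 3.

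Ms4a7 (ENSMUSG00000024672, 11321039 to 11336146, minus strand) held 6, 8 and 11 counts in control and 22, 27 and 20 with LPS. Its levels were 0.350, 0.453 and 0.591 CPM in control and 1.39, 1.64 and 1.22 CPM with LPS. The groups did not overlap, and the lowest LPS library had 20 counts against 11 in the highest control library. The 95% Poisson intervals of these 2 counts, 12.2 to 30.9 and 5.49 to 19.7, overlap. Ms4a7 averaged 0.465 ± 0.121 CPM in control and 1.42 ± 0.215 with LPS (SD, n = 3), for a rise on the log2 scale of 1.59 ± 0.37 (SE) with an adjusted p of 0.00388 by edgeR, or 3.00-fold. The study counted as differentially expressed (DEG) a gene whose log2 fold change exceeded 1.5 in size and whose adjusted p was under 0.05. Among the 3 tested members Ms4a7 was the only DEG, where 2.4% of tested genes were up-regulated DEG and 2.65% were DEG in either direction. Its fold change lay near that threshold. Without control replicate 1 it was 1.41, and without LPS replicate 2 it was 1.47, so that 0 members were DEG in both cases, nor was any with a prior count of 2 or with total-count scaling. Without the filter, where the share of DEG over all genes was not computed, 3 members were DEG, Ms4a7, Ms4a4b and Ms4a4c. Without control replicates 2 and 3 it was 2.00 with an adjusted p of 0.0579 by edgeR.

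Ms4a6c (ENSMUSG00000079419, 11469366 to 11482192, plus strand) held 7, 12 and 8 counts in control and 12, 20 and 22 with LPS. Its levels were 0.408, 0.680 and 0.430 CPM in control and 0.760, 1.22 and 1.34 CPM with LPS. The highest control and the lowest LPS library held the same count of 12 and were apart only by their library size. Ms4a6c averaged 0.506 ± 0.151 CPM in control and 1.11 ± 0.305 with LPS (SD, n = 3), for a rise on the log2 scale of 1.12 ± 0.41 (SE) with an adjusted p of 0.0454 by edgeR, or 2.17-fold. The call rested on the setting, since the direction held in all 15 alternatives but the adjusted p was under 0.05 in only 4 of them, with a range of 0.0387 to 0.201, and in 1 of the 6 fits that left out a library. Reads of this gene also have another possible source. The antisense gene BE692007 overlaps it by 12027 bases, and 49.6% of the 50-base words of Ms4a6c transcripts are also found in BE692007 transcripts. Whether the counting used strand is not given in the sources used here, so reads from the shared stretches cannot be told apart. BE692007 itself held 1, 0 and 4 counts in control and 5, 2 and 4 with LPS. Of the Ms4a6c words, 5.85% are found in Ms4a6b, and 51.4% in any other gene, so the shares overlap.

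**Figure D3:**
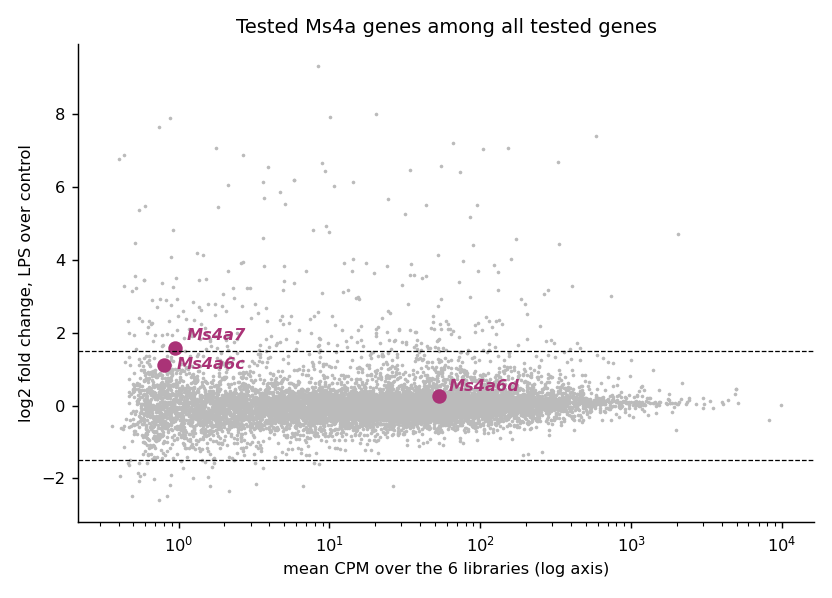
Log2 fold change of LPS over control against mean CPM over the 6 libraries (log axis) for 12296 tested genes in grey, with the 3 tested members marked and dashed lines at the DEG threshold of 1.5 in each direction. Ms4a6d lies at 0.26 inside the dense band of genes at its level, Ms4a6c at 1.12 and Ms4a7 at 1.59 lie at the low end of the measured range.

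**Figure D4:**
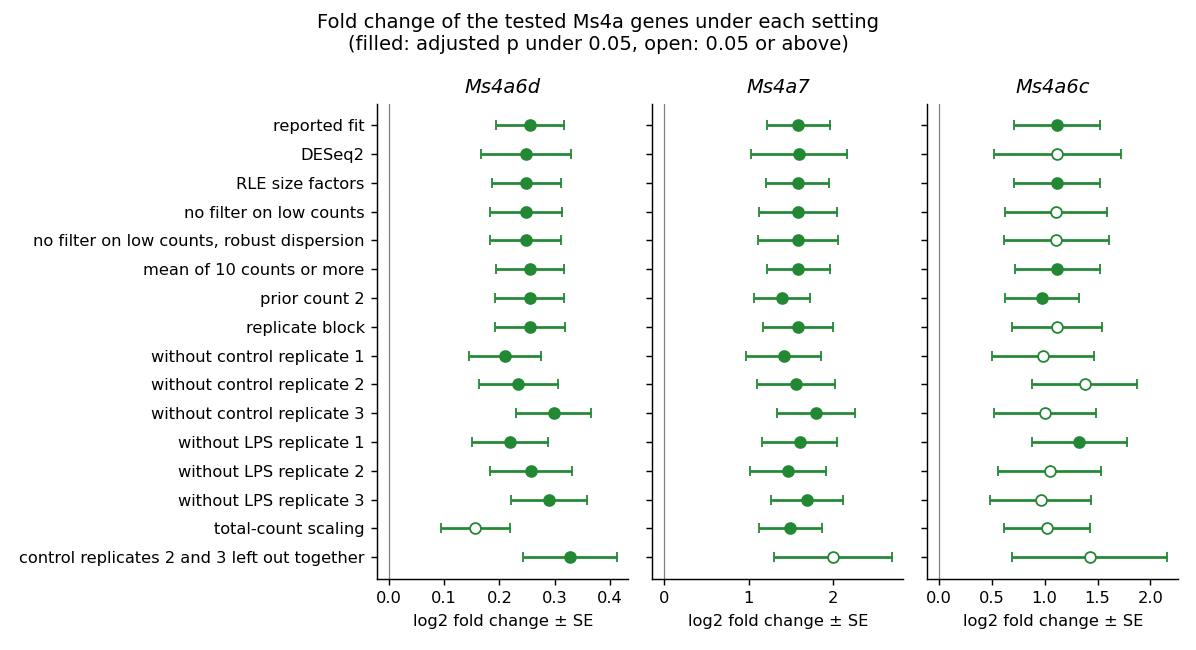
Log2 fold change with its SE for the 3 tested members in the reported fit and in 15 alternatives, filled where the adjusted p was under 0.05 and open elsewhere. Ms4a6d and Ms4a7 are each filled in 14 of 15 alternatives and Ms4a6c in 4 of 15, and no point lies below 0.

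Ms4a6b (ENSMUSG00000024677, 11516512 to 11531256, plus strand), the nearest relative of Ms4a6c in coding sequence, held 5, 6 and 3 counts in control and 12, 10 and 3 with LPS. Only LPS replicates 1 and 2 exceeded the control libraries, and LPS replicate 3 held as many counts as the lowest of them. Its means were 0.264 ± 0.0924 and 0.517 ± 0.299 CPM (SD, n = 3) and the groups overlapped. It did not pass the filter, and fits that included it gave adjusted p of 0.454 by edgeR without a filter, 0.47 with robust dispersion and 0.506 by DESeq2. It shares 442 bases with Gm19261 on the other strand, a gene at 0 counts throughout.

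Ms4a4b (ENSMUSG00000056290, 11443553 to 11463549, plus strand) held 0 counts in each control library and 10, 1 and 5 with LPS. The 95% Poisson intervals of the LPS counts, which cover counting error only, were 4.80 to 18.4, 0.0253 to 5.57 and 1.62 to 11.7, and for a count of 0 the floor of 3 counts, a one-sided limit, was used. The LPS mean was 0.333 ± 0.287 CPM (SD, n = 3), which is 1.97-fold of 3 counts per control library, with an SD of 1.70 from the LPS libraries. The floor limits the control side only, so this fold is not a lower bound. That fold was 1.08 without LPS replicate 1. The gene did not pass the filter. Without the filter its adjusted p was 0.00599 by edgeR and 0.00758 with robust dispersion. In these fits edgeR gave infinite weight to the spread pooled over genes (with robust dispersion, for the median gene). These p-values therefore do not measure the spread of Ms4a4b itself between libraries, and the robust fit is not a separate check of it. Against control replicate 1 alone it passed the filter, with an adjusted p of 0.175 by edgeR and an SE of 2.66 on the log2 scale in place of 1.66. DESeq2 gave an unadjusted p of 0.00438 and no adjusted one. The T-cell and NK-cell markers, the cells this gene is known from, were at 0 in every library for 6 of 12 genes (Cd3e, Cd3g, Cd8a, Nkg7, Klrb1c and Gzma). The whole list summed to 26.4 to 31.5 CPM in control and 31.3 to 35.9 with LPS, of which Cd5, at 22.7 ± 3.27 CPM in control, and Lck made up most. Of the 3 list genes tested Lck rose, by 0.62 ± 0.14 (SE) on the log2 scale with an adjusted p of 0.00327 by edgeR.

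Ms4a4c (ENSMUSG00000024675, 11404770 to 11427246, plus strand), the close copy of Ms4a4b, likewise held 0 counts in each control library and 1, 13 and 3 with LPS. The libraries that were highest for the pair differed, LPS replicate 2 for Ms4a4c and LPS replicate 1 for Ms4a4b. The interval of the 13 counts was 6.92 to 22.2 and that of the 3 counts 0.619 to 8.77. The LPS mean was 0.346 ± 0.391 CPM (SD, n = 3), which is 2.05-fold of 3 counts per control library, with an SD of 2.32 from the LPS libraries. That fold rests on LPS replicate 2, since both other LPS libraries were at or under 3 counts and gave no fold without it. Without the filter the adjusted p was 0.00442 by edgeR and 0.00566 with robust dispersion, and as for Ms4a4b these rest on the spread pooled over genes. Against control replicate 1 alone it passed the filter at an adjusted p of 0.189 by edgeR, with an SE of 2.78 on the log2 scale in place of 1.63, and DESeq2 gave an unadjusted p of 0.00418 and no adjusted one. Over all genes, 1995 had counts with LPS alone, and 19 of them reached a sum of 16 or more in the LPS libraries. That cut was set at the sum of Ms4a4b (16), so Ms4a4b and Ms4a4c (17) pass it by construction, and the number does not measure how unusual they are. Of the 50-base words of Ms4a4c transcripts, 7.73% are also found in Ms4a4b, so a small part of the reads could belong to either.

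Ms4a4d (ENSMUSG00000024678, 11536801 to 11558467, plus strand) had 1 count in all, in LPS replicate 2. Ms4a4a (ENSMUSG00000101389, 11375523 to 11392790, plus strand), the partner of Dectin-1, had 0 counts in all 6 libraries, which by the same one-sided limit allows up to 3 counts per library. Neither gene allows a fold change. Clec7a, which encodes Dectin-1, was tested and low, at 2.89 ± 0.347 CPM in control and 2.52 ± 0.614 with LPS (SD, n = 3), with a log2 fold change of -0.20 ± 0.24 (SE) and an adjusted p of 0.574 by edgeR. Vsig4 and Tnfrsf18, the partners of Ms4a6d and Ms4a4b, were at 0 counts in all libraries.

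Levels of different members were compared per kilobase of the deposited gene length. In control cells the order was Ms4a6d at 28.2 ± 1.67 CPM per kb, Ms4a6c at 0.247 ± 0.0736, Ms4a7 at 0.104 ± 0.0272 and Ms4a6b at 0.0589 ± 0.0206 (SD, n = 3), with the other 4 at 0. The libraries of neighbours in this order did not overlap, and Ms4a6d was 114-fold above the next gene. With LPS the order began with Ms4a6d at 33.6 ± 1.61 CPM per kb, Ms4a6c at 0.539 ± 0.149 and Ms4a7 at 0.318 ± 0.0483. Ms4a6d was then 62.4-fold above the next gene. Below Ms4a7 came Ms4a4c at 0.198 ± 0.223, Ms4a6b at 0.115 ± 0.0668 and Ms4a4b at 0.0631 ± 0.0545 CPM per kb. From Ms4a7 downwards each gene overlapped with the next, so their order with LPS was not separated from the spread between libraries. Ms4a6d made up 97.0 to 97.8% of the members' counts in control and 93.0 to 94.5% with LPS, without overlap between the groups. Among the tested genes, 83.2% lay below Ms4a6d per kb in control and 85.1% with LPS, against 4.07% and 8.87% below Ms4a6c and 1.22% and 5.28% below Ms4a7.

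By the distance of log2(CPM + 0.5), each gene centred on its mean over the 6 libraries, the 3 genes nearest to Ms4a6d among 10459 with a mean of 50 counts or more were Mapk11 (0.0486), Klrg2 (0.0638) and Wrnip1 (0.0663). Their own log2 fold changes were 0.24, 0.27 and 0.27 with edgeR adjusted p of 0.152, 0.0204 and 0.00379. Ms4a6d alone had the depth for this comparison.

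The other 11 genes named Ms4a were near silent. For 8 of them, the B-cell gene Ms4a1 and the mast-cell gene Ms4a2 included, all 6 libraries were at 0, and the highest count of any was 6, for Ms4a14 in LPS replicate 3. Defining markers of these cells were also at or near 0, with 3 of 8 B-cell markers and 3 of 7 mast-cell markers at 0 throughout. In each list 1 marker was tested and rose, Pax5 with 0 counts in control and 18, 11 and 10 with LPS, and Hdc, which makes histamine, with 3, 10 and 4 counts in control and 79, 76 and 88 with LPS. The related genes Tmem176b and Tmem176a, which lie on chromosome 6, were expressed and not called. Tmem176b was at 60.4 ± 1.38 CPM in control and 63.4 ± 3.79 with LPS, a log2 fold change of 0.07 ± 0.06 (SE) with an adjusted p of 0.393 by edgeR. Tmem176a was at 14.0 ± 1.51 and 14.1 ± 1.69 CPM, a log2 fold change of 0.01 ± 0.12 (SE) with an adjusted p of 0.955.

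Around the cluster, 54 genes that are not named Ms4a lie within 500 kb, and 10 of them were tested. With LPS 4 were higher, Slc15a3 (an endolysosomal peptide transporter, log2 fold change 1.80 ± 0.04 SE), Tmem132a (1.76 ± 0.09), Ccdc86 (0.74 ± 0.05) and Stx3 (a membrane fusion syntaxin, 0.59 ± 0.06). Osbp, an oxysterol-binding protein, fell by 0.23 ± 0.05 on the log2 scale, and Tmem109, Prpf19, Gm6501, Mrpl16 and Patl1 were not called. Inside the span of the members, 9 further genes had at most 5 counts in a library and 0 were tested.

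**Figure D5:**
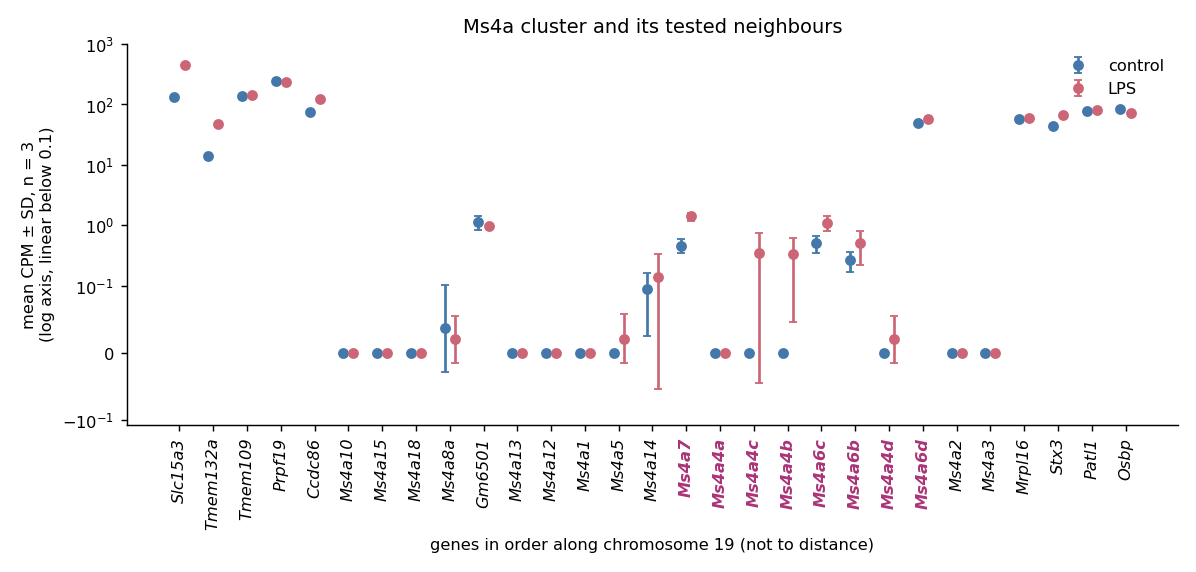
Mean CPM ± SD of 3 control (blue) and 3 LPS (red) libraries for all Ms4a genes and the tested genes within 500 kb, in chromosomal order and not to distance. The axis is logarithmic and linear below 0.1. Members, in purple, reach 58.4 CPM only at Ms4a6d, while the tested neighbours on both sides lie at 13.8 CPM or above except Gm6501.

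Receptors and adaptors known to act with MS4A proteins, listed with Trem2 and the proteases that shed it, moved in both directions. Of 14 listed genes, 12 were tested, 4 were higher and 4 lower, and their median was -0.11 on the log2 scale beside 0.00 over all tested genes. The largest changes were in some of the Fc receptors and their kinase, while the Fc receptor genes Fcer1g and Fcgr2b were not called (adjusted p of 0.953 and 0.131 by edgeR). Fcgr4 rose by 1.62 ± 0.12 (SE) on the log2 scale, Fcgr1 by 1.12 ± 0.08 and Syk by 1.10 ± 0.04, while Fcgr3 fell by 0.59 ± 0.11 (edgeR adjusted p of 8.07e-08, 2.09e-08, 3.75e-11 and 0.000503). The remaining calls, named after their values were seen, include Trem2, the microglial lipid receptor whose shed form is linked to the human MS4A cluster. Trem2 was at 137.9 ± 2.95 CPM in control and 96.2 ± 6.61 with LPS (SD, n = 3) and fell by 0.52 ± 0.05 (SE) on the log2 scale with an adjusted p of 1.92e-06 by edgeR. Of the proteases that can shed it, Adam10 fell by 0.36 ± 0.04 and Adam17 rose by 0.20 ± 0.04 (adjusted p of 5.94e-06 and 0.00259). Card9, the adaptor below Dectin-1 and Syk, fell by 0.32 ± 0.08 with an adjusted p of 0.00517 by edgeR.

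Genes typical of the LPS response are given beside the log2 fold changes of 0.26, 1.12 and 1.59 of the tested members. All 13 listed interferon-response genes were tested and higher. Their median was 5.19 on the log2 scale, and the leading ones were Rsad2 at 7.40, Ifit3 at 7.21, Ifit1 at 7.07 and Isg15 at 6.43. Of 8 genes of alternative activation, a macrophage state in which Ms4a4a and Ms4a7 are known to be high, only Clec10a was tested, and it fell by 0.84 ± 0.13 (SE) with an adjusted p of 0.00015 by edgeR. The macrophage mannose receptor Mrc1 held 6, 3 and 1 counts in control and 1, 0 and 12 with LPS, and Chil3 was at 0 throughout. Among the microglia and macrophage markers, Csf1r, Ptprc and Spi1 were higher with LPS, while Laptm5 and, as given above, Trem2 were lower. Spi1, which encodes PU.1, rose by 0.58 ± 0.04 (SE) on the log2 scale with an adjusted p of 5.43e-08 by edgeR.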

How the data were processed

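RNA of N9 microglia was sequenced by Novogene on an Illumina NovaSeq. The authors deposited raw read counts per gene with gene length for 54532 genes, of which 0 lacked a name. The submitters' processing notes name featureCounts version 1.5.0-p3 and mm10, and the aligner, annotation release and use of strand are not given in the sources used here. The authors' own comparison (DESeq2 version 1.20.0) holds fold changes, p-values, 18 further columns of values per sample and 2 of group means, none of which were used.

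The 3 LPS and 3 control libraries were compared by the quasi-likelihood test of edgeR version 4.0.16 under R 4.3.3, with TMM, filterByExpr by group, a prior count of 0.125 and no block, with Benjamini-Hochberg adjustment over the 12296 tested genes. The SE is the log2 fold change divided by the square root of F. An exact permutation test of 3 against 3 cannot give a two-sided p under 0.1 and was not used. Totals were 16363767 to 17956772 counts per library. Floors (3 counts) and Poisson intervals cover counting error only, because the reads carried no stated molecular identifiers. Groups came from the sample titles.

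Coding sequences, shared words of 50 and 100 bases and overlaps came from GENCODE release M21 (GRCm38), promoters from RefSeq (GRCm38.p6), with Python 3.11.15, Biopython 1.88 and scipy 1.17.1, and figures with matplotlib 3.10.9. Named were all members, tested Ms4a and Tmem176 relatives, tested genes within 500 kb, the 3 genes most like a called member with a mean of 50 counts or more, and up to 4 genes per list by largest change. Further list genes, mostly markers of cell types, were named after their values were seen. The members and lists were chosen with earlier results of these data known. Other settings tried were the tool DESeq2 (version 1.42.0), RLE size factors, no filter, no filter with robust dispersion, a filter at a mean of 10 counts, a prior count of 2, a replicate block and each library left out. Scaling by library totals and leaving out control replicates 2 and 3 together were added after seeing the data. The fits were tested on simulated data. Part of the microglia and macrophage marker list is not reported here.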

Additional observations from a re-analysis of the deposited data

How the results depend on the processing

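The direction of the 3 tested members held in all 15 alternatives. Ms4a6d kept its call in 14 of them (0.16 to 0.33 on the log2 scale, adjusted p of 0.000877 to 0.058), Ms4a7 in 14 (1.39 to 2.00, 0.00387 to 0.0579) and Ms4a6c in 4 (0.96 to 1.42, 0.0387 to 0.201). Ms4a6c lost its call with DESeq2 (1.12, adjusted p 0.179), with no filter (1.11, 0.0949), with robust dispersion (1.11, 0.109), with the replicate block (1.12, 0.0524), with total-count scaling (1.02, 0.0592) and without control replicates 2 and 3 (1.42, 0.201). Ms4a6d lost it with total-count scaling (0.16, 0.058) and Ms4a7 without control replicates 2 and 3 (2.00, 0.0579). Of the 8 members, 3 were higher in the reported fit, 1 with total-count scaling and 1 without that pair, and 4 without the filter (Ms4a6d, Ms4a7, Ms4a4b and Ms4a4c). Members that were DEG numbered 3 without the filter, with or without robust dispersion, and 0 with a prior count of 2, with total-count scaling and without that pair. Genes higher over all tested genes were 1520 with total-count scaling against 2294, and genes lower were 3339 with it and 1151 without that pair against 1927. The cause was not tested. Without the filter 2344 of the 22311 genes with at least 1 count were higher, and the share of DEG over all genes in that fit was not computed.

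Leaving out each library in turn gave 1833 to 2152 genes higher and 1544 to 1929 lower, 2 to 3 members higher, 0 lower and 0 to 1 DEG. The log2 fold changes were then 0.21 to 0.30 for Ms4a6d (adjusted p 0.00546 to 0.0266), 1.41 to 1.79 for Ms4a7 (0.00928 to 0.028) and 0.96 to 1.38 for Ms4a6c (0.0387 to 0.161). The log2 ratio of means of Ms4a6b was 0.58 to 1.37. The folds of the LPS mean against 3 counts per control library were 1.08 to 2.78 for Ms4a4b and 2.01 to 2.89 for Ms4a4c, which has none without LPS replicate 2. The replicate numbers are shared by the groups, but same-numbered libraries deviated together with correlations of 0.136, 0.0588 and -0.00415, control replicate 2 correlated best with LPS replicate 3 (0.0912), and the block gave 2454 genes higher, 2020 lower and 2 members higher. At 0.161 to 0.190 CPM for 3 counts, depth limits all members but Ms4a6d. With 3 libraries per group the SE of Ms4a6c was 0.41 on the log2 scale.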
